A study of Mus musculus with 6 samples.

Results

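Epithelial antimicrobial lectins and defence proteins were examined as a set of 10 genes: Reg3b, Reg3g, Reg3a, Reg1, Reg4, Itln1, Ang4, Lcn2, Lyz1 and Nos2. A gene was represented by the array row with the highest mean among rows that the platform annotation gives that symbol alone, and each of the 10 had 1 such row, out of 22180 genes on 23521 tested rows. A row stands for 1 transcript cluster, the set of probes summarised together. The genes were chosen by their role and selected on their spread between WT mice on these same arrays, so that spread is given here as a description without a test.

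The arrays carried RNA of normal colonic mucosa next to tumours from 6 male mice of the BALB/c strain, backcrossed for at least 10 generations. The 4 WT mice were Mthfd1S+/+, and the 2 others were heterozygous, Mthfd1S+/-, with a deficiency of the synthetase activity of the folate enzyme MTHFD1. Every mouse had been given the carcinogen azoxymethane (AOM) at 6 mg/kg at an age of 3 months. It was followed by dextran sulfate sodium (DSS), which injures colonic epithelium, at 3% in 2 cycles of 4 days that fell in weeks 1 and 4, and the mice were killed in week 13. The age field of the labels reads 7 months. Untreated mice were not analysed here, so both groups share the carcinogen, the colitis and the tumour beside the sampled tissue. The comparison asks which transcripts differ with the synthetase deficiency. Values are log2 expression as the authors normalized it, so that a step of 1 is a doubling of the signal.

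Defence proteins of this kind are secreted into the mucus or released by inflamed epithelium. REG3 lectins bind the peptidoglycan or membranes of bacteria and keep them away from the mucosal surface, and the cytokine IL-22 is known to induce them through STAT3. Intelectin 1 binds microbial glycans, angiogenin 4 is a ribonuclease with bactericidal activity, lysozyme cleaves peptidoglycan, lipocalin 2 withholds iron by binding siderophores, and NOS2 makes nitric oxide. After DSS colitis, several of these genes are known to be induced in the colon.

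Array medians lay between 5.48 and 5.53, and arrays correlated at 0.986 to 0.990 across all rows, which are not independent replicates. Mthfd1 itself had a WT mean of 7.63 ± 0.10 (SD, n = 4) and a Mthfd1S+/- mean of 7.79 ± 0.23 (SD, n = 2). Because the labels leave the effect of the allele on the transcript unstated, this does not check the genotypes. Markers of the labelled tissue were bright, with mean levels over 10 general epithelial genes of 10.85 to 10.96 in WT and 10.80 to 10.88 in Mthfd1S+/- mice. Goblet cell markers stood at 11.19 to 11.31 and 11.14 to 11.29 over 10 genes. The tissue also held muscle: 10 smooth muscle markers averaged 10.44 to 10.80 in WT, while Mthfd1S+/- mice had 10.63 and 11.06. In Mthfd1S+/- mice 10 of 10 markers were higher (median difference 0.23), as were 12708 of 23521 clusters, and 0 markers were at an unadjusted p under 0.05. The part of muscle in the differences between genotypes was not tested. Fits with the mean of these markers as covariate are given below as alternatives only. In such bulk tissue, fewer cells of a type and less RNA per cell cannot be told apart.

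The widest variation lay in 4 genes, Itln1, Ang4, Reg3b and Reg3g, which differed between the highest and the lowest WT mouse by 4.67-fold to 10.2-fold. They fell into a pair of patterns: Reg3b with Reg3g, and Itln1 with Ang4. None of the 10 genes passed the adjusted threshold of 0.05 for a genotype difference in limma, where 0 of 23521 clusters (0.0%) did. At an unadjusted p under 0.05, which 5.79% of all clusters reached, 0 of the 10 genes were found. The groups did not overlap in 0 of the 10 genes, against 14.0% of all clusters (7.96% with Mthfd1S+/- higher and 6.04% with it lower).

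**Figure D1:**
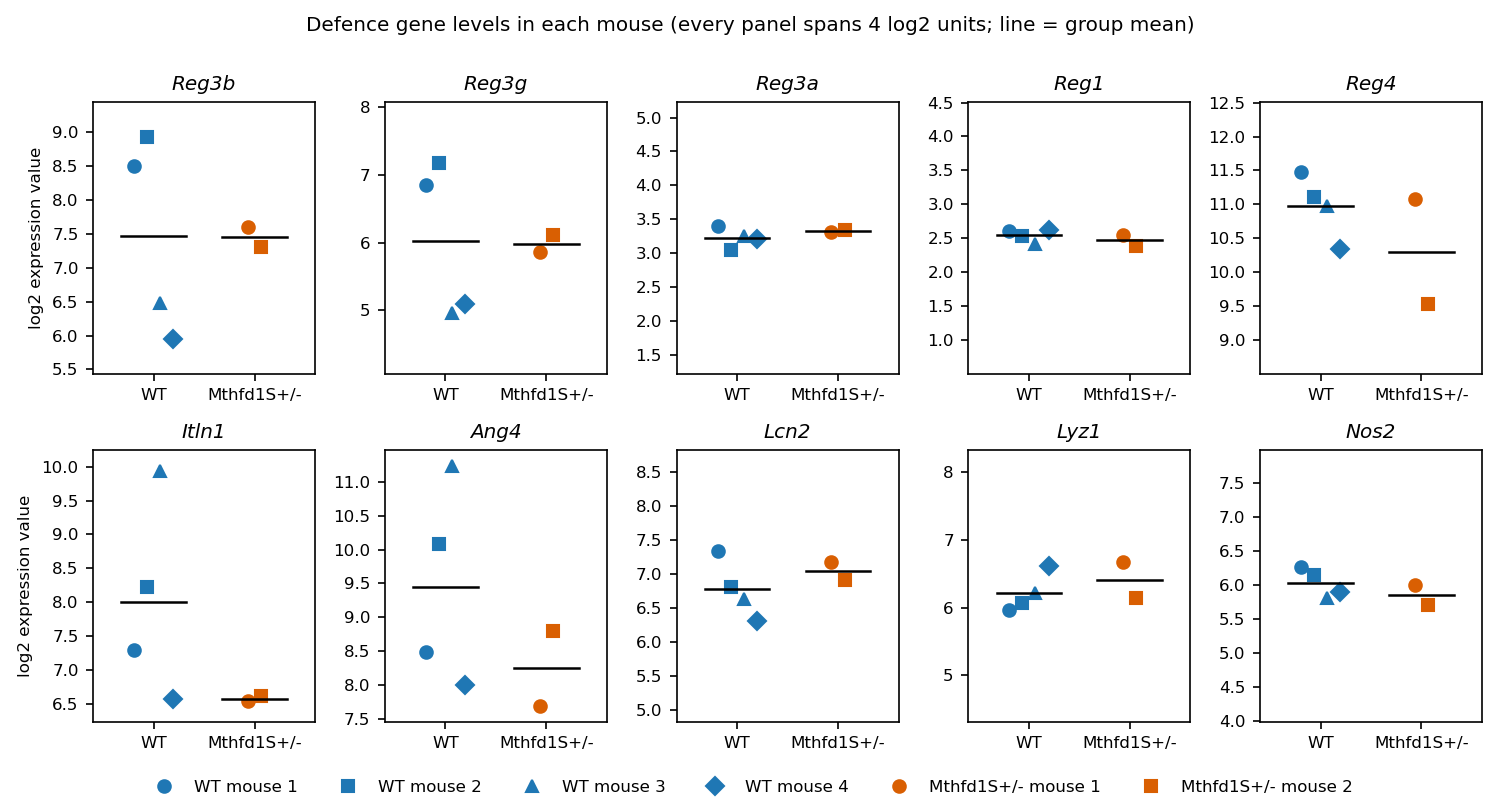
Log2 expression values of the 10 defence genes in each of the 4 WT and 2 Mthfd1S+/- mice, 1 point per mouse, with a line at each group mean. Panels all span 4 log2 units, and the WT points of Reg3b, Reg3g, Itln1 and Ang4 are spread over 2.22 to 3.36 of them, with the means of Reg3b in the 2 groups at 7.46 and 7.45.

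Promoter windows of the 4 most variable genes are shown because they fall into pairs by level. RefSeq windows of GRCm38.p6 matched 9 of the 10 genes. The 250 bases before the start of transcription are printed here, from the reference strain C57BL/6J and not from BALB/c, 5′ to 3′ on the gene's strand. Capitals mark matches of TTCNNNGAA, the general form of a STAT binding site, and of TATAAA, the TATA box, on either strand.
Reg3b, chr6:78370635-78370884, plus strand: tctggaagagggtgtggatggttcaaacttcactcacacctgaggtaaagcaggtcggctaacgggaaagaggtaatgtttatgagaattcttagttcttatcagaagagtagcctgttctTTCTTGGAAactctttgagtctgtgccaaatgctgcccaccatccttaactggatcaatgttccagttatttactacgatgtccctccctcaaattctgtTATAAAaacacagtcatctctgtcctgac
Reg3g, chr6:78468875-78469124, minus strand: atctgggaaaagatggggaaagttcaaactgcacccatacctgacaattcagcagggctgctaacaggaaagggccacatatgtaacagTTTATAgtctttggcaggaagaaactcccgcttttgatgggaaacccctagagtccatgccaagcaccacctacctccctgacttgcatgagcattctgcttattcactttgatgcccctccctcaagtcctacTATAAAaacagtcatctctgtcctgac
Itln1, chr1:171535295-171535544, minus strand: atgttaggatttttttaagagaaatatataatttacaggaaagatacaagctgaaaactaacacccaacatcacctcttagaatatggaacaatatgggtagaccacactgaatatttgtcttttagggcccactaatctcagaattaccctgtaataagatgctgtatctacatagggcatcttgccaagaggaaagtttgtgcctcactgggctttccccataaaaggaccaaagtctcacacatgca
Ang4, chr14:51773591-51773840, minus strand: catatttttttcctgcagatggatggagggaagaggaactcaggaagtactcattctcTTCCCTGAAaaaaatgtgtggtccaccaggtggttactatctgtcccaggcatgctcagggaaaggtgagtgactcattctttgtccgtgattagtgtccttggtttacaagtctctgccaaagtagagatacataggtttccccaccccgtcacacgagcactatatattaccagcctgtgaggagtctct

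The Reg3b and Reg3g windows were alike, with 173 identical bases in 253 aligned columns (68.4%) of a global alignment, whereas the other 35 pairs among the 9 windows had 36.6% to 50.9%. Itln1 and Ang4, which followed each other in level, had 45.8%. TTCNNNGAA was found in 2 of the 9 windows, those of Reg3b and Ang4, and in 7.02% of the 32851 promoter windows of that length. TATAAA was found in 3 of the 9, those of Reg3b, Reg3g and Reg1, and in 12.4% of all windows. In Reg3b the TATAAA match began 29 bases, and in Reg3g the nearer one 27 bases, before the start. Such matches are descriptions of the letters and not of bound sites.

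Reg3b, a lectin active against Gram-negative bacteria, read 8.50, 8.93, 6.47 and 5.95 in the WT animals numbered 1 to 4. In Mthfd1S+/- mice it read 7.60 and 7.31. WT mice 1 and 2 were high, WT mice 3 and 4 low, and both Mthfd1S+/- mice lay between them. The range over WT mice was 2.98 on the log2 scale, or 7.88-fold, and the gap between the Mthfd1S+/- mice was 0.29. Group means were 7.46 ± 1.47 (SD, n = 4) and 7.45 ± 0.21 (SD, n = 2). Mthfd1S+/- minus WT was -0.0097 on the log2 scale, the 95% interval running from -1.77 to 1.75. limma's adjusted p was 0.9996, and the exact two-sided permutation p was 1.0. With 4 and 2 mice there are 15 splits, so a permutation p cannot go below 0.0667.

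Reg3g, a lectin active against Gram-positive bacteria, was likewise high in WT mice 1 and 2 and low in WT mice 3 and 4. It read 6.85, 7.18, 4.96 and 5.10 in WT mice, and 5.86 and 6.11 in Mthfd1S+/- mice. Again the WT mice lay at both extremes, 4.67-fold apart, with the Mthfd1S+/- mice between them, though the lowest mouse was WT mouse 3 for Reg3g and WT mouse 4 for Reg3b. Means were 6.02 ± 1.16 (SD, n = 4) and 5.98 ± 0.18 (SD, n = 2). Mthfd1S+/- minus WT was -0.034, the 95% interval running from -1.42 to 1.36, and limma's adjusted p was 0.996. Of the sum of squares over the 6 mice, 99.3% for Reg3b and 99.2% for Reg3g lay among WT mice. Probes of these close relatives may read each other's transcripts, which the files do not settle.

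The sign of both differences changed with the mice included. Without WT mouse 1 or 2, the Reg3b difference was 0.34 or 0.48, and that of Reg3g 0.24 or 0.35. Leaving out WT mouse 3 or 4 in turn gave negative values for both genes, down to -0.51 for Reg3b and -0.39 for Reg3g. The intervals admit a difference of over 2-fold in either direction.

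The other REG lectins on the list were dim or followed another order. Reg3a read 3.40, 3.06, 3.26 and 3.21 in WT and 3.31 and 3.34 in Mthfd1S+/- mice. Reg1, abundant in the exocrine pancreas, read 2.60, 2.54, 2.42 and 2.62 in WT and 2.55 and 2.39 in Mthfd1S+/- mice. Both were among the lowest 8.77% of tested clusters by mean signal, where a value cannot be told from background because detection calls were not used here. Their relatives Reg2, at 2.47 to 2.76, and Reg3d, at 3.60 to 3.84, were as dim. Pancreatic acinar markers, a check on stray pancreas, averaged 5.13 to 5.31 in WT and 5.21 to 5.31 in Mthfd1S+/- mice over 9 genes.

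Reg4, a lectin of enteroendocrine and deep crypt secretory cells of the colon, varied most between the Mthfd1S+/- mice. It read 11.48, 11.11, 10.98 and 10.34 in WT, and 11.08 and 9.53 in Mthfd1S+/- mice. Only the second Mthfd1S+/- mouse fell outside the WT range, and the gap of 2.92-fold between the Mthfd1S+/- mice exceeded the WT range of 2.20-fold. The difference was -0.68 ± 0.42 (SE), and limma's adjusted p was 0.870; it was 0.095 without that mouse and -1.45 without the first. In the same mouse the smooth muscle markers were highest (11.06) and the epithelial markers lowest (10.80) of the 6, and their part in the Reg4 value was not tested. The Reg4 difference was -0.0019 with the smooth muscle mean in the fit, a covariate that is highest in the mouse whose removal gave 0.095 and that took Reg3b from -0.0097 to 0.95. The other deep crypt secretory markers, 6 genes without Reg4, averaged 8.93 and 9.18 in the Mthfd1S+/- mice and 8.81 to 9.07 in WT mice.

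Itln1, the intelectin of goblet and Paneth cells, had the widest WT range of the 10 genes. It read 7.30, 8.23, 9.93 and 6.57 in WT mice, and 6.55 and 6.62 in Mthfd1S+/- mice. WT mouse 3 was 10.2-fold above WT mouse 4, which lay between the Mthfd1S+/- mice. Means were 8.01 ± 1.45 (SD, n = 4) and 6.58 ± 0.05 (SD, n = 2). The difference was -1.42 ± 0.76 (SE; 95% interval -3.16 to 0.31), or 2.68-fold. limma's adjusted p was 0.860, and the exact permutation p was 0.267. Unadjusted p was 0.095 in limma and 0.261 in unmoderated least squares, which uses only the gene's own variance. Both Mthfd1S+/- mice lay below the WT mean, and the difference was -0.78 without WT mouse 3.

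Ang4, the secreted ribonuclease, went with Itln1 from mouse to mouse. It read 8.49, 10.08, 11.22 and 8.0 in WT mice, and 7.70 and 8.80 in Mthfd1S+/- mice. WT mouse 3 was again highest and WT mouse 2 next, and the second Mthfd1S+/- mouse lay above WT mice 1 and 4. The WT range of 3.22 was 2.69 times the difference of -1.20 ± 0.81 (SE; 95% interval -3.05 to 0.65). limma's adjusted p was 0.885, and the exact permutation p was 0.467. Unadjusted p was 0.174 in limma and 0.360 in unmoderated least squares. Leaving out WT mouse 3 gave -0.61, and leaving out WT mouse 4 gave -1.68. Rows of other angiogenin genes were dim, at 1.44 to 1.87 for Ang2 and 2.55 to 2.80 for Ang6. Both lay among the lowest 4.75% of tested clusters by mean signal, so their small ranges do not bear on the spread of Ang4.

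For 6 Paneth markers other than the 10 genes, WT ranges of single genes ran from 0.13 for Defa26 to 1.84 for Pnliprp2, against 3.36 for Itln1 and 3.22 for Ang4. Their mean was 5.24, 5.32, 5.73 and 5.34 in WT and 5.53 and 5.39 in Mthfd1S+/- mice, so that WT mouse 3 was highest here too. Pnliprp2, a lipase, read 5.24, 5.84, 7.08 and 5.92 in WT mice (named after its values were seen), and without it 5 genes averaged 5.21 to 5.46 in WT and 5.45 and 5.27 in Mthfd1S+/- mice. The part of Paneth cells in the Itln1 and Ang4 values was not tested. The defensin rows Defa22 and Defa24 had differences of -0.56 ± 0.18 (SE) and 0.31 ± 0.11, opposite in sign. Among 10 goblet cell markers the widest WT range was 0.57, that of Fcgbp. Spink4, another of them, had a difference of -0.31 ± 0.10 (SE) with groups that did not overlap, as in 14.0% of all clusters. Its adjusted p was 0.837 in limma (both genes named after their values were seen).

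WT mouse 3, the highest for Itln1 and Ang4, was also the highest for the mean of several marker lists. It stood at 10.88 for absorptive colonocytes, 7.93 for macrophages and monocytes and 7.55 for B and plasma cells, where the other mice reached at most 10.82, 7.83 and 7.35. Adipocyte markers varied most: their mean over 9 genes was 6.82, 6.42, 7.55 and 6.14 in WT and 6.01 and 6.06 in Mthfd1S+/- mice. In Mthfd1S+/- mice 9 of 9 genes were lower, as were 10813 of 23521 clusters. At an unadjusted p under 0.05 in limma 2 were lower, as were 2.44% of clusters, and 0 passed the adjusted threshold. WT mouse 1 was second for the adipocyte markers. For Itln1 it lay below WT mouse 2 and above both Mthfd1S+/- mice, and for Ang4 below WT mouse 2 and the second Mthfd1S+/- mouse. The part of these cell types in the Itln1 and Ang4 values was not tested.

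**Figure D2:**
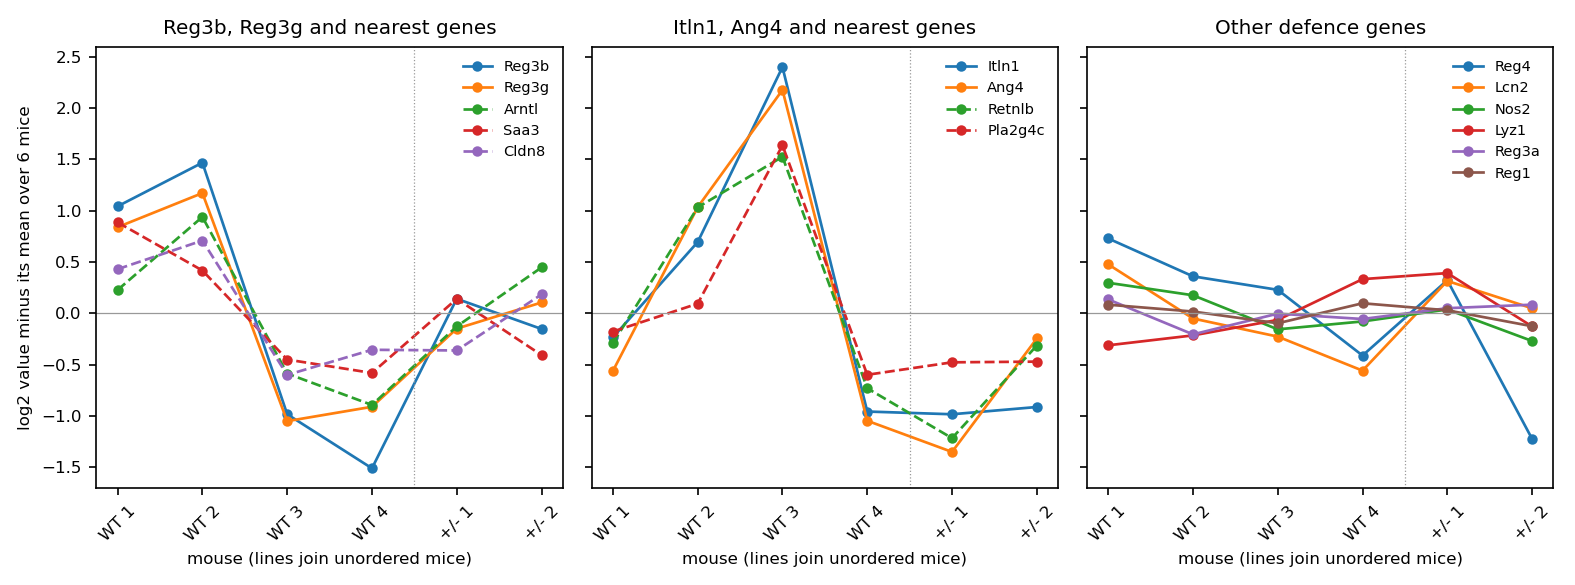
Log2 values of the 10 defence genes (solid lines) and of the named nearest genes (dashed), each minus its own mean over the 6 mice, so that 0 is the gene's average. Reg3b and Reg3g are high in WT mice 1 and 2, Itln1 and Ang4 peak in WT mouse 3 at 2.40 and 2.18, and the other 6 genes stay within -1.22 to 0.73; the lines join mice that have no order.

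Likeness between genes was measured as the root mean square (RMS) distance between their values over the 6 mice, after each gene was centred on its own mean. Reg3b and Reg3g lay 0.33 apart, where Reg3b alone had a root mean square of 1.04 around its mean. Itln1 and Ang4 lay 0.38 apart, against 1.23 for Itln1 alone. Across the pairs the distances were 1.53 to 1.62, so the 4 genes did not move as a single group.

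Over all tested clusters, the nearest to Reg3b were Reg3g, Arntl at 0.56 and Saa3 at 0.62. Arntl encodes the clock factor BMAL1 and Saa3 an acute-phase serum amyloid A. Reg3g had Reg3b, Arntl at 0.36 and the tight junction gene Cldn8 at 0.40, against a root mean square of 0.82 for Reg3g alone. Arntl read 8.22, 8.93, 7.40 and 7.10 in WT and 7.86 and 8.44 in Mthfd1S+/- mice, so WT mouse 2 was highest and WT mouse 4 lowest, as for Reg3b. Saa3 read 6.88, 6.41, 5.54 and 5.41 in WT, and 6.13 and 5.58 in Mthfd1S+/- mice.

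For Itln1 the nearest clusters were Ang4, Retnlb at 0.47 and the phospholipase gene Pla2g4c at 0.50. For Ang4 they were Retnlb at 0.32, Itln1 and Pla2g4c at 0.62. Retnlb, a goblet cell protein that kills Gram-negative bacteria, read 10.04, 11.37, 11.86 and 9.60 in WT and 9.12 and 10.02 in Mthfd1S+/- mice. Its difference was -1.15 ± 0.59 (SE), with an adjusted p of 0.855 in limma. These distances over 6 mice are a description and carry no test.

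Lcn2, the siderophore-binding lipocalin, differed less between mice. It read 7.34, 6.81, 6.64 and 6.31 in WT, and 7.18 and 6.91 in Mthfd1S+/- mice. Both Mthfd1S+/- mice lay inside the WT range, which was 2.05-fold. The difference was 0.27 ± 0.24 (SE), with an adjusted p of 0.912 in limma. It ran from 0.12 to 0.46 when 1 mouse was left out, without WT mouse 4 and without WT mouse 1. Neutrophils also make lipocalin 2, and 12 neutrophil markers averaged 5.05 to 5.19 in WT and 5.29 and 5.01 in Mthfd1S+/- mice, with 8 of the 12 higher and 4 lower in Mthfd1S+/- mice. The part of neutrophils in the Lcn2 values was not tested.

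Lyz1, the lysozyme of Paneth cells, read 5.96, 6.06, 6.21 and 6.61 in WT and 6.67 and 6.15 in Mthfd1S+/- mice. The first Mthfd1S+/- mouse was just above the WT range. The difference was 0.20 ± 0.20 (SE), with an adjusted p of 0.925 in limma. Lyz2, the closely related lysozyme of macrophages, read 9.99, 9.99, 10.31 and 10.24 in WT and 10.40 and 10.15 in Mthfd1S+/- mice. Probes for the 2 genes may read both transcripts, so the Lyz1 row alone does not show Paneth cells.

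Nos2, the inducible nitric oxide synthase of epithelium and macrophages, read 6.27, 6.15, 5.82 and 5.89 in WT and 6.01 and 5.70 in Mthfd1S+/- mice. The second Mthfd1S+/- mouse lay below the WT range of 1.37-fold. The difference was -0.18 ± 0.15 (SE), with an adjusted p of 0.907 in limma. It ran from -0.33 to -0.022 when 1 mouse was left out, the latter without the second Mthfd1S+/- mouse. Macrophage and monocyte markers averaged 7.69 to 7.93 in WT and 7.79 and 7.83 in Mthfd1S+/- mice over 12 genes.

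**Figure D3:**
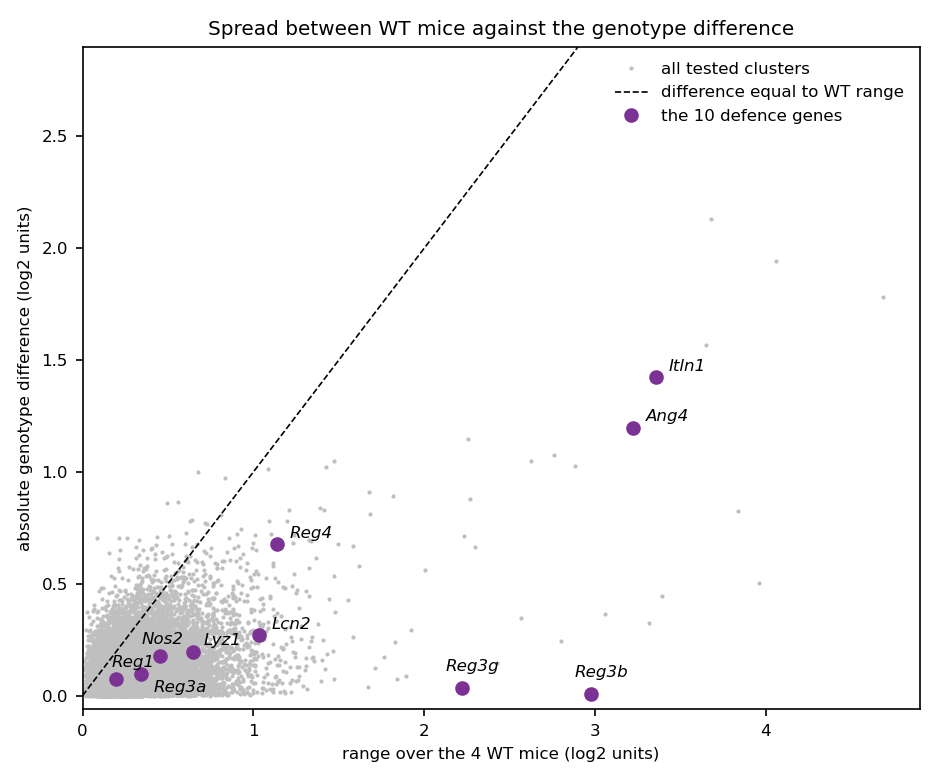
Range over the 4 WT mice (horizontal axis) against the size of the difference between genotype means (vertical axis), both in log2 units, for 23521 clusters in grey and the 10 defence genes in purple, with a dashed line where both are equal. All 10 genes lie below the line, as do 90.0% of clusters, and Reg3b and Reg3g lie far to the right with differences near 0.

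Set against the genotype difference, the WT range was larger in all 10 genes, by 1.68 times for Reg4 to 308 times for Reg3b. The same held for 90.0% of all tested clusters, so the count of 10 is near the background. The WT SD exceeded the difference in 9 of 10 genes, the exception being Reg4, and in 63.0% of all clusters. Both Mthfd1S+/- mice lay within the WT range in 4 of 10 genes (Reg3b, Reg3g, Reg3a and Lcn2) and in 36.1% of all clusters, and 1 of them did in each of the other 6 genes.

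The size of the spread set these genes further from the rest than its ratio to the difference. Their median WT SD was 0.45, against 0.11 over all clusters, and the median WT range was 1.09 against 0.26. A WT range over 1, or 2-fold, was found in 6 of 10 genes and in 0.867% of clusters. For a range over 2, or 4-fold, it was 4 of 10 against 0.102%, that is 24 clusters. By WT SD, Ang4 ranked 8, Reg3b 9, Itln1 10 and Reg3g 16 among the 23521. The genes were chosen with this spread in view, so these counts describe them and test nothing.

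Median differences were near 0: -0.054 over the 10 genes, with 3 positive and 7 negative, and 0.012 over all clusters, with 12708 positive and 10813 negative. Taken without sign, the median difference was 0.19 over the 10 genes and 0.083 over all clusters. Genotype accounted for a median of 17.4% of the variation over mice in the 10 genes and 13.5% in all clusters. No single mouse was high throughout. WT mouse 1 was highest in 4 of the 10 genes, WT mice 2 and 3 in 2 each, and WT mouse 4 and the first Mthfd1S+/- mouse in 1 each. The second Mthfd1S+/- mouse was lowest in 3 genes and highest in 0, while over all clusters it was lowest in 19.1% and highest in 19.3%.

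**Figure D4:**
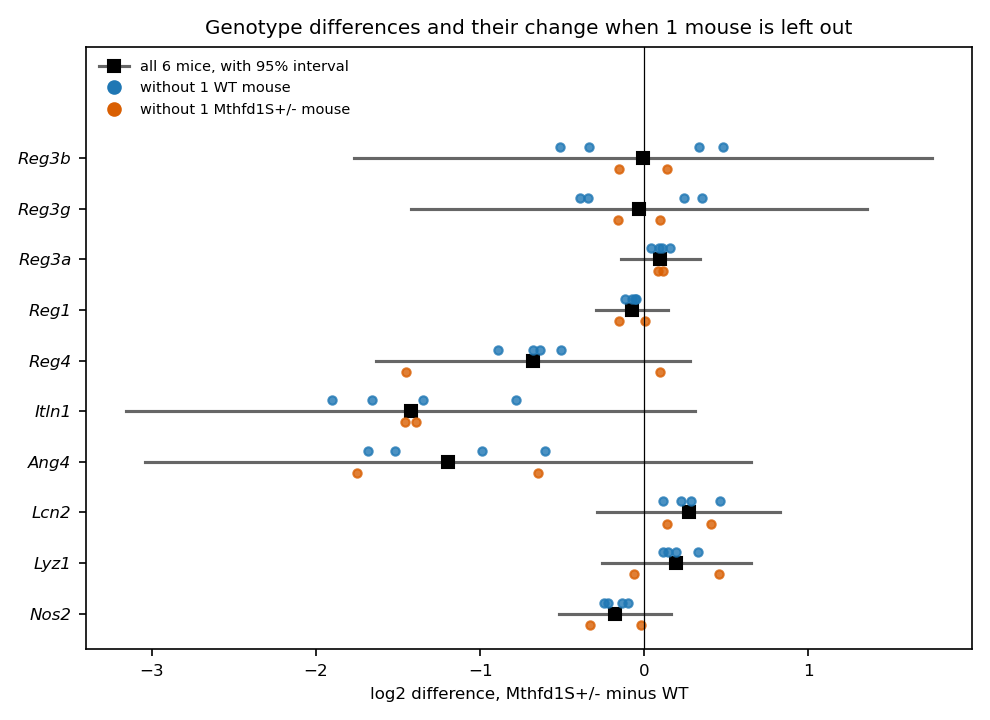
Log2 differences between Mthfd1S+/- and WT means for the 10 defence genes (squares) with 95% intervals from limma (lines), and the same difference with 1 WT mouse (blue points) or 1 Mthfd1S+/- mouse (orange points) left out. Every interval includes 0, and points of Reg3b, Reg3g, Reg4, Reg1 and Lyz1 lie on both sides of it.

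Other genes of mucosal defence gave a wider view of the same tissue; the lists were drawn up with earlier results of these data known. Of 29 other epithelial defence proteins, 12 were higher and 17 lower in Mthfd1S+/- mice, with a median difference of -0.011. At an unadjusted p under 0.05 there were 0, where 3.36% of clusters were higher and 2.44% lower. Smallest p values belonged to Saa2 (-0.33 ± 0.15, SE), the iron hormone Hamp (-0.51 ± 0.24), the defensin Defb1 (-0.24 ± 0.12) and Retnlb. Hamp read 3.66, 4.10, 4.47 and 3.48 in WT and 3.37 and 3.45 in Mthfd1S+/- mice, a dim row with the WT order of Itln1. A WT range over 1 was found in 2 of the 29, Retnlb and Saa3.

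Genes that make oxidants and nitric oxide, 16 in number, had a median difference of 0.022. One was higher at an unadjusted p under 0.05, the neuronal synthase Nos1 (0.36 ± 0.15, SE), and 1 lower, the epithelial oxidase Duox2 (-0.33 ± 0.14), both with an adjusted p of 0.837 in limma. Gch1, which makes the cofactor of nitric oxide synthases, read 7.20, 7.03, 6.74 and 6.45 in WT and 6.69 and 6.20 in Mthfd1S+/- mice. Ass1, which resupplies arginine, had -0.18 ± 0.12.

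Cytokines and receptors upstream of the defence genes had a median of -0.039 over 29 genes, 10 higher and 19 lower, with 0 at an unadjusted p under 0.05. Il22ra1, the epithelial receptor chain for IL-22, read 9.28, 9.45, 9.28 and 9.25 in WT and 9.12 and 9.10 in Mthfd1S+/- mice, a difference of -0.20 ± 0.089 (SE) with groups that did not overlap. Its adjusted p was 0.837 in limma and its exact permutation p 0.0667, the smallest possible. Groups did not overlap in 14.0% of all clusters, and Nos1, Hamp, Defb1 and Nfkbia were among the other named cases. Nfkbia and Spink4 had the same permutation p. Il6 (-0.17 ± 0.088, a dim row with the same permutation p), Il11 (0.15 ± 0.099) and Tnf (0.13 ± 0.084) followed. A WT range over 1 was found in Il22ra2, the soluble IL-22 decoy receptor, and in Il1b, both named after their values were seen. Il22ra2 did not follow the order of Reg3b: it was lowest in WT mouse 2, at 4.38, and highest in WT mouse 4, at 5.47. Il1b read 6.69, 6.20, 5.69 and 5.57 in WT, and 6.18 and 5.73 in Mthfd1S+/- mice, with WT mice 1 and 2 above WT mice 3 and 4 as for Reg3b.

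Microbial sensors and transcription factors had a median of -0.0022 over 22 genes, 11 in each direction. One was higher at an unadjusted p under 0.05, the NF-kappaB inhibitor Nfkbia (0.25 ± 0.093, SE; adjusted p 0.837 in limma). Ticam1 (0.13 ± 0.086), the secretory lineage factor Atoh1 (-0.27 ± 0.20) and Cdx2 (-0.13 ± 0.093) came next. A WT range over 1 was found in Nfkbiz and Cebpd, both inflammatory regulators and both named after their values were seen. Nfkbiz read 8.20, 8.55, 7.55 and 7.65 in WT, and 7.81 and 7.48 in Mthfd1S+/- mice. Cebpd read 6.06, 6.67, 6.00 and 5.54 in WT, and 6.13 and 6.18 in Mthfd1S+/- mice. Among the WT mice, 1 and 2 were the upper pair in both genes. The share of all clusters with this upper pair is not given here. For Nfkbiz the second Mthfd1S+/- mouse lay below all WT mice, unlike for Reg3b. Over the 4 lists, 0 genes passed the adjusted threshold.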

How the data were processed

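Total RNA of 6 mice was hybridised to Affymetrix Mouse Gene 2.0 ST arrays, 1 per mouse. The deposited values are log2 expression, 1 per transcript cluster and array, which the submitters' processing notes credit to Expression Console. For its version, its algorithm and the build, nothing was found: not given in the sources used here. Values were taken as log2 because of the range of 1.06 to 13.5. A change that the normalization removed from all genes cannot be seen, and the number of arrays limits the precision.

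Of 41345 clusters, 23521 had exactly 1 symbol in the platform annotation and were tested; 1814 had several and 16010 none. The genotype comparison used lmFit and eBayes of limma 3.58.1 (R 4.3.3), two-sided and without covariate, with Benjamini-Hochberg adjustment over all tested clusters. Printed SEs and intervals of differences are from this fit, where eBayes draws each variance towards a value common to all clusters. For genes with a wide spread they are therefore narrower than the gene's own variance gives. Single genes also had an exact permutation test. The steps were tested on simulated data. The 10 genes, the lists and the naming rule were chosen with earlier results of these data known. Named were the 10 genes, up to 4 genes per list with the smallest p, the 3 nearest clusters to each of the 10 genes with a WT range over 1.5, and close relatives. A planned comparison of protein sequences was not made. Alternatives were other normalizations, filters, covariates, a replicate block and leaving out each mouse. Each array has its own mouse identifier, and the labels name them biological replicates.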

Additional observations from a re-analysis of the deposited data

Results flagged for a closer look

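The 4 WT values of 82 genes, those of the naming rule and Mthfd1, were checked for 1 mouse that stands apart. Genes named outside that rule, such as Mptx1 below, were not checked. The criterion was a gap to the neighbouring mouse of more than Dixon's 95% critical share of the whole range. Chance passes this in about 5% of groups, and 7 genes did, of which 0 were among the 10 defence genes. WT mouse 1 stood high in 5 of the 7: Il6 at 2.86 (others 2.69), Reg2 at 2.76 (others 2.47 to 2.49), Cldn7 at 10.23 (others 10.11 to 10.13), Cel at 5.24 (others 4.92 to 4.98) and Cd14 at 8.53 (others 7.99 to 8.07). WT mouse 2 stood high in Tnf at 5.91 (others 5.78 to 5.79), and WT mouse 3 in Elane at 5.32 (others 5.01 to 5.06).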

How the results depend on the processing

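The count of clusters past the adjusted threshold was 0 in the 14 alternatives in which it was computed. Of 158 recomputed differences of the defence genes, 144 kept their sign, 14 turned it and 0 passed the adjusted threshold, all from differences that had not passed before. Some alternatives changed only the variance estimate or the set of tested clusters. There each difference stayed as it was, so its sign could not turn, and these are counted among the 144. Itln1 (-1.90 to -0.78), Ang4 (-1.75 to -0.61) and Reg3a (0.041 to 0.15) kept their sign throughout. Reg3b was 0.017 with median-centred arrays. Adding the mean of the smooth muscle markers as covariate, Reg3b was 0.95, Reg3g 0.53 and Nos2 0.0091. When 1 mouse was left out, differences ran from -0.51 to 0.48 for Reg3b, -0.39 to 0.35 for Reg3g, -1.45 to 0.095 for Reg4, -0.15 to 0.0037 for Reg1, -0.33 to -0.022 for Nos2, 0.12 to 0.46 for Lcn2 and -0.064 to 0.46 for Lyz1; the count of defence genes at an unadjusted p under 0.05 ran from 0 to 2, of list genes from 1 to 8 (3 with all mice), and of all clusters from 1065 to 1932. These were Itln1 and Ang4 without WT mouse 4, Lcn2 without WT mouse 1 and Reg4 without Mthfd1S+/- mouse 1 (adjusted p 0.456 to 0.981 in limma).

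The replicate numbers are shared by 2 mice per genotype, and nothing in the labels pairs them. Deviations of same-numbered mice from their group means correlated at 0.117 and -0.044 across clusters. Deviations of the 2 Mthfd1S+/- mice are equal and opposite by construction, so these correlations cannot tell paired from unpaired mice. With the replicate number as a block, which leaves 1 residual degree of freedom and sets the 2 Mthfd1S+/- mice against WT mice 1 and 2, 2331 clusters, 12 list genes and 7 defence genes were at an unadjusted p under 0.05. These 7 were Reg3b (-1.26), Reg3g (-1.03), Ang4 (-1.03), Itln1 (-1.18), Reg4 (-0.996), Nos2 (-0.35) and Lyz1 (0.40), with adjusted p values of 0.107 to 0.472 in limma, and Lcn2 was -0.031. The identifier letter as a covariate gave 1 defence gene, Reg4 (-0.93, adjusted p 0.565 in limma), and 5 list genes. With unnamed and multi-gene clusters included, 2600 were at an unadjusted p under 0.05. The WT range exceeded the difference in 8 to 10 of the 10 genes, and the WT SD in 6 to 9, with 1 mouse left out. Each defence gene has 1 cluster, so another cluster could not be tried.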

Other observations

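Clock genes were looked at after Arntl appeared beside Reg3b and Reg3g, a choice made after seeing the data. Of 16 measured, 6 had a WT range over 1 on the log2 scale, where 0.867% of all clusters did. Dbp, an output gene of the clock, had WT values of 8.76, 7.08, 9.30 and 9.88 and Mthfd1S+/- values of 8.98 and 9.01, lowest in the WT mouse that was highest for Reg3b and Reg3g. Nr1d2, a repressor in the clock, read 8.18, 7.26, 8.52 and 8.84 in WT and 8.65 and 8.28 in Mthfd1S+/- mice. Nr1d1 read 9.66, 8.53, 9.69 and 10.11 in WT and 10.12 and 10.22 in Mthfd1S+/- mice. Its difference was 0.67 ± 0.36 (SE; adjusted p 0.861 in limma), with groups that did not overlap, as in 14.0% of all clusters. Per3 read 6.88, 6.16, 7.27 and 7.58 in WT and 7.08 and 6.63 in Mthfd1S+/- mice. Npas2, a partner of BMAL1, read 9.02, 9.51, 8.51 and 8.38 in WT and 9.01 and 9.42 in Mthfd1S+/- mice. Between genotypes 0 of the 16 were at an unadjusted p under 0.05 in limma, and 0 passed the adjusted threshold. The labels used here give no time of day of tissue collection, and the part of the clock in the Reg3 values was not tested.

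The 24 clusters with a WT range over 2 also held Mptx1, a mucosal pentraxin, at 4.43, 4.69, 8.27 and 4.79 in WT and 4.08 and 5.36 in Mthfd1S+/- mice, high in the WT mouse that was highest for Itln1 and Ang4. Heat shock genes Hspa1a and Hspa1b were highest in WT mouse 2, at 10.97 and 10.98. These genes were chosen after their values were seen.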
